A study of Mus musculus with 24 samples.

Results

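The genes described here encode the proteasome, its assembly chaperones and its alternative caps in C2C12, an established line of mouse myoblasts whose cells form myotubes once growth serum is withdrawn. Members were the genes whose symbol begins with Psma, Psmb, Psmc, Psmd, Psme or Psmg followed by a digit, without the immunoproteasome genes Psmb8, Psmb9 and Psmb10. The rule found 45 of the 14693 genes in the count table, and all 45 passed the filter on low counts. It used names and no measured values. Of the 45 genes, 42 encode a subunit, a dedicated assembly chaperone or a cap of the proteasome. The other 3 share only the letters of the symbol or are near-copies, namely Psmc3ip, which encodes a partner of the meiotic recombinases, Psme2b, a near-copy of Psme2, and Psme3ip1, which encodes a protein that binds the Psme3 cap.

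The study asked which genes respond to linoleic acid (LA), an 18-carbon omega-6 fatty acid, and to ANGPTL4, a secreted inhibitor of lipoprotein lipase, while the cells differentiate. All cells were wild type by label, were moved from fetal bovine to horse serum, and received vehicle, 100 µM LA bound to bovine serum albumin, or 10 ng/mL recombinant mouse ANGPTL4. RNA was taken on day 2 or day 6, which gave 6 groups of 4 libraries, 24 in all. Libraries came from total RNA with the QuantSeq 3′ kit, which places a read near the 3′ end of each transcript, and held between 6100684 counts (ANGPTL4, day 6, library 1) and 25049912 counts (LA, day 2, library 1). The labels do not say whether the 4 libraries of a group came from separate cultures, so the p-values measure the spread between these libraries, which may be technical. All 12 skeletal muscle marker genes looked for were measured. By contrast, 7 of 8 adipocyte marker genes, Adipoq and Plin1 among them, and the leukocyte gene Ptprc had no row in the table. Fibroblast marker genes were measured too. Group means of Col3a1 ran from 5927 CPM (LA, day 2) to 9433 CPM (LA, day 6), where CPM are counts scaled to a common library size. The macrophage genes Cd68 and Itgam passed the filter on low counts, with group means of at most 2.465 and 0.8617 CPM (both LA, day 2).

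The proteasome degrades proteins that carry ubiquitin chains. Its 20S core is a barrel of alpha rings that gate the entrance and beta rings that hold the proteolytic sites, carried by Psmb5 (chymotrypsin-like), Psmb6 (caspase-like) and Psmb7 (trypsin-like). The 19S particle on the end of the barrel has a ring of ATPases (Psmc genes) that unfold substrates and non-ATPase subunits (Psmd genes) that bind and remove ubiquitin. Psmg proteins help to assemble the core, Psmd5, Psmd9 and Psmd10 help to assemble the 19S base, and Psme proteins form other caps. In skeletal muscle this pathway removes contractile and regulatory proteins, and the ubiquitin ligases Fbxo32 and Trim63 are its best known muscle-specific feeders. The transcription factor Nfe2l1 raises proteasome gene transcription when proteasome activity is short, through antioxidant response elements.

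Promoter sequence is shown for the 4 members that the naming rule picked in the most comparisons and whose promoter holds a searched motif. They are Psmb3 and Psmc1, each picked in 4 comparisons, and Psma1 and Psme4, each in 3. The letters are RefSeq sequence of the build GRCm38.p6, from 250 bases before to 10 bases after the annotated start, 5′ to 3′ in the direction of the gene. Capitals mark CCAAT, the box bound by NF-Y, or TGACNNNGC, the core of the antioxidant response element, on either strand (ATTGG and GCNNNGTCA on the other).
Psmb3, chr11:97703184-97703443 (plus strand): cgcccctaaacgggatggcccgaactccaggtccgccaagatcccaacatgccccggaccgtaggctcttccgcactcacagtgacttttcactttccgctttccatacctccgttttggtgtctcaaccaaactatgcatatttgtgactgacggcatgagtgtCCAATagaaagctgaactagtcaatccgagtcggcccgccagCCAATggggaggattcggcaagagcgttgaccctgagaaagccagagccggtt
Psmc1, chr12:100109952-100110211 (plus strand): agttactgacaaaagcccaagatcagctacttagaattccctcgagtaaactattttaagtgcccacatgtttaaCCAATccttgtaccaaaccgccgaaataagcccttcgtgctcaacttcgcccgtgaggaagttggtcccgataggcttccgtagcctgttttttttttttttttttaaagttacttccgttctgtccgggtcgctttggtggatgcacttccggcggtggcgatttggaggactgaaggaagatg
Psma1, chr7:114276107-114276366 (minus strand): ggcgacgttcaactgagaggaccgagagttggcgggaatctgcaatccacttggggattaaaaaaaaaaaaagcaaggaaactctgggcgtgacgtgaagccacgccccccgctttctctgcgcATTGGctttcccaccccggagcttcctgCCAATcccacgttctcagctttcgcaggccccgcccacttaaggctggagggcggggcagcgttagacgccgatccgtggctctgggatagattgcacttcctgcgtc
Psme4, chr11:30771525-30771784 (plus strand): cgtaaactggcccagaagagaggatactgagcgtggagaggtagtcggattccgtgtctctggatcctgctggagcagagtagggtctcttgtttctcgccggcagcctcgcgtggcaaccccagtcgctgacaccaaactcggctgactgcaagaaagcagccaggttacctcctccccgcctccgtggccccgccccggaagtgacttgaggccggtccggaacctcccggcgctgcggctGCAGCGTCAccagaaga
Psmb3 holds 2 CCAAT boxes, 85 and 43 bases before the start, and Psma1 holds 2, at 126 (opposite strand) and 98 bases. Psmc1 holds 1 box at 175 bases, and Psme4 holds 1 antioxidant element core on the opposite strand, 7 bases before the start.

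Promoter windows of 300 bases, 250 before to 50 after the start, were at hand for 38 of the 45 members, with 42 windows between them. The antioxidant element core was in 6 of these 42 windows (14.3%), the same share as in the windows of all genes tested (14.3%). It was present in Psmb5, Psmb6, Psmc6, Psmd9, Psmd12 and Psme4. CCAAT was in 14 windows (33.3%), against 37.1% for all genes tested, and no member window held both motifs. A match of letters is a description of the sequence and not a binding site.

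As a share of all counts, the 42 proteasome genes made up 0.535% ± 0.00776 (SD, n = 4) of the library in vehicle cells on day 2 and 0.573% ± 0.0139 on day 6. With LA the share was 0.58% ± 0.0324 on day 2 and 0.545% ± 0.0175 on day 6, so its mean was above that of vehicle on day 2 and below it on day 6. No test was run on these shares. With ANGPTL4 it was 0.584% ± 0.0142 and 0.596% ± 0.0125. Since these are bulk libraries, a smaller number of cells of one kind and less RNA per cell cannot be told apart. The plot of list means by library shows the order of the groups separately for the 20S core and the 19S particle, beside ribosomal protein and respiratory chain genes.

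**Figure D1:**
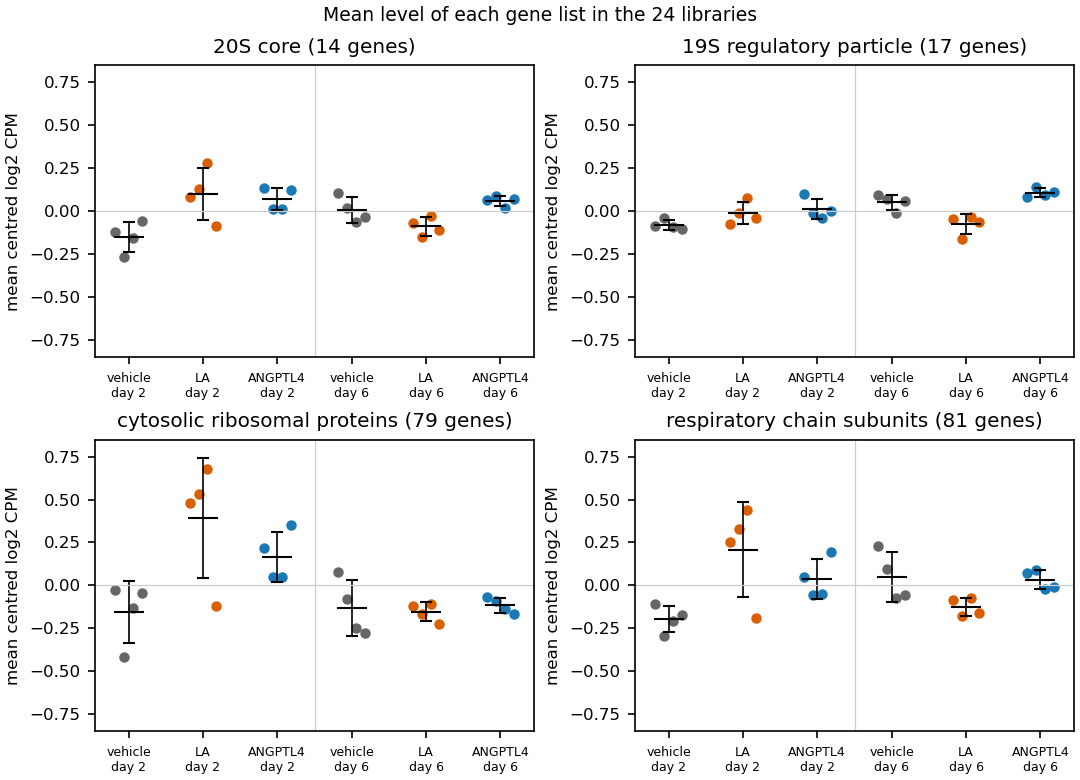
Mean level of 4 gene lists in each of the 24 libraries, as log2 CPM centred on each gene's mean over all libraries (y axis), by group (x axis); points are libraries, bars the mean and SD of 4. For the 20S core, 3 LA libraries of day 2 lie at 0.084 to 0.28 and the fourth at -0.088, within the vehicle range of -0.27 to -0.059.

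On day 2 LA raised genes of the proteolytic core, while nearly all members of the regulatory particle did not pass the test. Of the 45 members, 13 rose and none fell at an adjusted p under 0.05 (edgeR's quasi-likelihood test, Benjamini-Hochberg adjustment over 12994 genes). For comparison, 8.27% of all genes tested rose and 6.82% fell. Of the 14 genes of the 20S core, 9 rose, with a median log2 fold change of 0.23 over the 14. Of the 17 members of the 19S particle, 1 rose, with a median of 0.062. Sem1 and Adrm1, 19S subunits whose symbols fall outside the rule, also rose and are given below. The median over all genes tested was 0.0054, and at an unadjusted p under 0.05, 20 members were higher and none lower.

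The beta ring, which holds the active sites, had 6 of 7 genes called higher. Psmb7, the trypsin-like subunit, measured 130.1, 132, 133 and 124 CPM (counts scaled to a common library size, after TMM) in the 4 vehicle libraries and 156, 164, 178 and 137 CPM with LA. All 4 LA libraries lay above all 4 vehicle libraries, and the log2 fold change was 0.30 (SE 0.063, adjusted p = 0.00303). Psmb4, a structural beta subunit, measured 96.3, 98, 95.3 and 81.7 CPM with vehicle and 109, 110.5, 129 and 111 CPM with LA, again without overlap, a log2 fold change of 0.31 (SE 0.064, adjusted p = 0.00287). Psmb3, also structural, went from 81.3, 57.5, 75.3 and 70.3 CPM to 90.1, 91.6, 112 and 82 CPM, with the lowest LA library just above the highest vehicle library, and changed by 0.41 (SE 0.087, adjusted p = 0.00366). Psmb1 rose by 0.20 (SE 0.053, adjusted p = 0.0116) without overlap between the groups. Psmb6, the caspase-like subunit, rose by 0.26 (SE 0.072, adjusted p = 0.0163), with the fourth LA library inside the vehicle range. Psmb2 was at 0.12 (adjusted p = 0.432).

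Psmb5, the chymotrypsin-like subunit and the target of clinical proteasome inhibitors, had the highest fitted change of the members but not the steadiest. Its 4 vehicle libraries measured 11, 13.7, 11.5 and 15.7 CPM and its 4 LA libraries 25.3, 24.1, 28.6 and 9.41 CPM. Libraries 1 to 3 of the LA group lay above all vehicle libraries, and library 4 lay below all of them. The log2 fold change was 0.81 (SE 0.22, adjusted p = 0.0214), and 0.99 (adjusted p = 5.88e-06) without LA library 4. The call was lost without LA library 1 (adjusted p = 0.0535), without LA library 3 (0.104), without vehicle library 1 (0.0545) and without vehicle library 3 (0.0526), and when the 8 compared libraries were fitted alone (0.187).

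**Figure D2:**
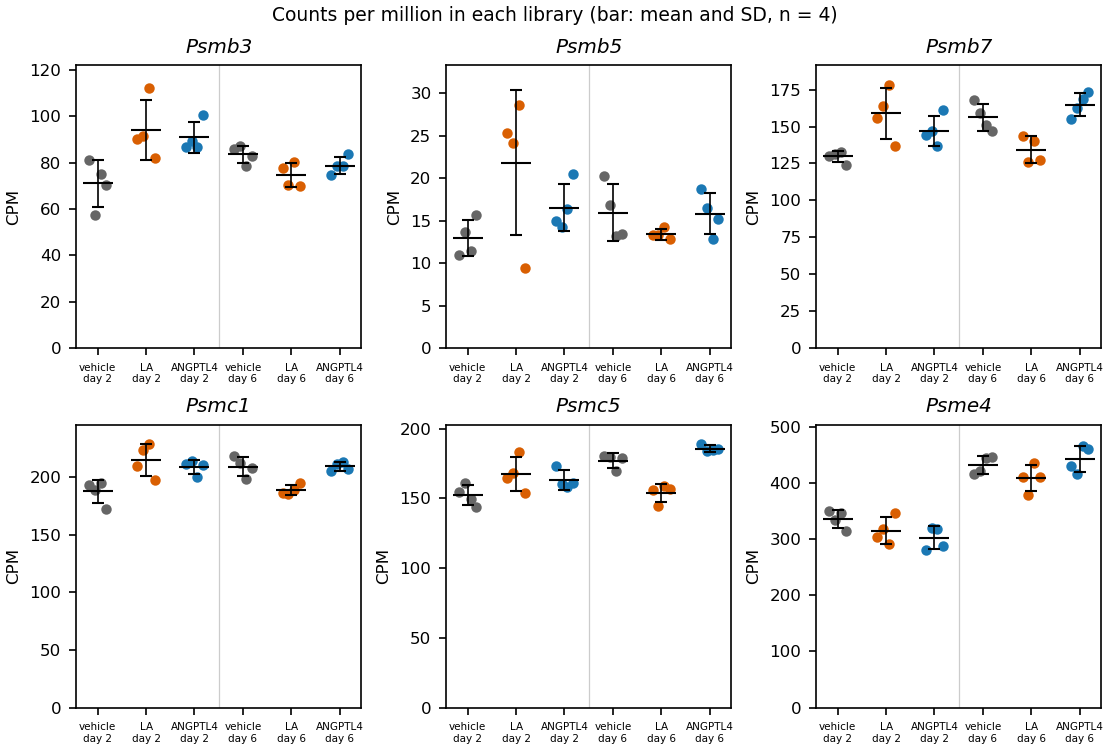
CPM (y axis, from 0) of 6 members in each library by group (x axis), with the mean and SD of 4 libraries as bars. Psmb3, Psmb7 and Psmc1 are higher with LA than with vehicle on day 2 in all 4 libraries, Psmb5 in 3 of 4, Psmc5 is lower with LA on day 6 in all 4, and Psme4 is higher on day 6 than on day 2 in every treatment.

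In the alpha ring, which gates entry to the core, 3 of 7 genes rose with LA on day 2. They were Psma5 at 0.31 (SE 0.1, adjusted p = 0.0412), Psma6 at 0.17 (SE 0.052, adjusted p = 0.0227) and Psma2 at 0.17 (SE 0.056, adjusted p = 0.041). Psma5 measured 91.9, 60.3, 94.1 and 101 CPM with vehicle, and the second of these libraries was below the rest, although all 4 LA libraries lay above all of them. The same library was the lowest of its group for Psma3 (62.3 CPM) and Psma4 (84.5 CPM), and the Psma5 call was lost without it, and also without LA library 1, 2 or 3. Psma7, another alpha subunit, stood at 0.12 (adjusted p = 0.197).

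Among the members of the 19S particle, the single gene called on day 2 was Psmc1, an ATPase of the base. It measured 193, 189, 195 and 173 CPM with vehicle and 209.7, 223, 229 and 198 CPM with LA, without overlap, and its log2 fold change was 0.20 (SE 0.048, adjusted p = 0.00628). The other 5 ATPases lay between 0.014 and 0.14. Psmd1 and Psmd2, the large scaffold subunits, stood at -0.057 and 0.062, and Psmd14, the deubiquitinase of the lid, at 0.061. None of the 11 non-ATPase genes passed the test, with values from -0.057 to 0.14.

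Among the 20S assembly chaperones, Psmg3 rose by 0.43 (SE 0.1, adjusted p = 0.00641) and Psmg1 by 0.26 (SE 0.087, adjusted p = 0.0384), while Psmg2 and Psmg4 did not pass. Psmg3 measured 11.5, 11.3, 12.4 and 9.16 CPM with vehicle and 14, 12, 16.8 and 17.2 CPM with LA, and the lowest LA library lay below the highest vehicle library. Of the caps, Psme2, a subunit of the interferon-inducible 11S cap, rose by 0.32 (SE 0.1, adjusted p = 0.0371), whereas its partner Psme1 stood at 0.013. Psme3, the nuclear 11S cap, was at 0.037 and Psme4, the single-chain cap also called PA200, at -0.094. The 19S assembly chaperones Psmd5, Psmd9 and Psmd10 lay between 0.072 and 0.15 and did not pass.

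The count of 13 rested on the libraries used. It was 3 (Psmb3, Psmb4 and Psmb7) without LA library 3, 8 without LA library 1, 8 without vehicle library 3, and 2 when the 8 compared libraries were fitted alone. Those 3 calls were the ones that held without any 1 of the 8 libraries.

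Of 17 partner genes outside the rule, 3 rose on the same day and none fell, against 8.27% and 6.82% of all genes tested. Pomp, the maturation factor of the core, rose by 0.29 (SE 0.064, adjusted p = 0.00417), and Sem1, a small lid subunit, by 0.63 (SE 0.16, adjusted p = 0.0128). Adrm1, the ubiquitin receptor of the 19S particle, rose by 0.34 (SE 0.086, adjusted p = 0.0104). The groups overlapped for Pomp, with the lowest LA library at 81.41 CPM and the highest vehicle library at 82.94 CPM. They also overlapped for Sem1, at 40.6 and 49.58 CPM. For Adrm1 the lowest LA library, at 60.64 CPM, lay just above the highest vehicle library, at 60.3 CPM.

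Other short housekeeping transcripts rose in the same LA libraries. On day 2, 60 of 79 ribosomal protein genes and 55 of 81 respiratory chain genes were called higher with LA, with medians of 0.57 and 0.45. The mean log2 level of the ribosomal protein list was 0.48, 0.53, 0.68 and -0.12 in the 4 LA libraries, against -0.027, -0.42, -0.13 and -0.043 with vehicle. The 20S core list stood at 0.084, 0.13, 0.28 and -0.088 with LA and -0.12, -0.27, -0.16 and -0.059 with vehicle, so LA library 4 was the lowest of its group in both lists. Of the 8 genes of the TRiC chaperonin, a folding machine present in every cell, the log2 fold changes lay between -0.028 and 0.089, with a median of 0.053. Library totals also differed on day 2. LA libraries 1 to 4 held 25049912, 17356591, 24648902 and 9547787 counts, and the vehicle libraries 11179492, 14529573, 9850494 and 12326876. LA libraries 1 to 3 were each deeper than every vehicle library, and LA library 4 was shallower than all of them. What these gene lists or the library totals have to do with the proteasome change was not tested.

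Transcript length differed between the subcomplexes. Annotated transcript length had a median of 1162 nucleotides in the 20S core and 1819 in the 19S particle, against 3207 for all genes tested, 910 for ribosomal protein genes, 863 for respiratory chain genes and 2394 for TRiC genes. Across the 42 proteasome genes, Spearman's rho between length and log2 fold change was -0.559 for LA on day 2 and 0.0202 for LA on day 6. For ANGPTL4 on day 2, which shares the vehicle libraries, it was -0.581. For day 6 against day 2 it was -0.0176 in vehicle cells, 0.507 in LA cells and 0.448 in ANGPTL4 cells, and for the day 6 minus day 2 difference in the effect it was 0.514 for LA and 0.535 for ANGPTL4. These are descriptions across genes of the same libraries, and genes are not independent replicates. The part of transcript length in the result was not tested.

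**Figure D3:**
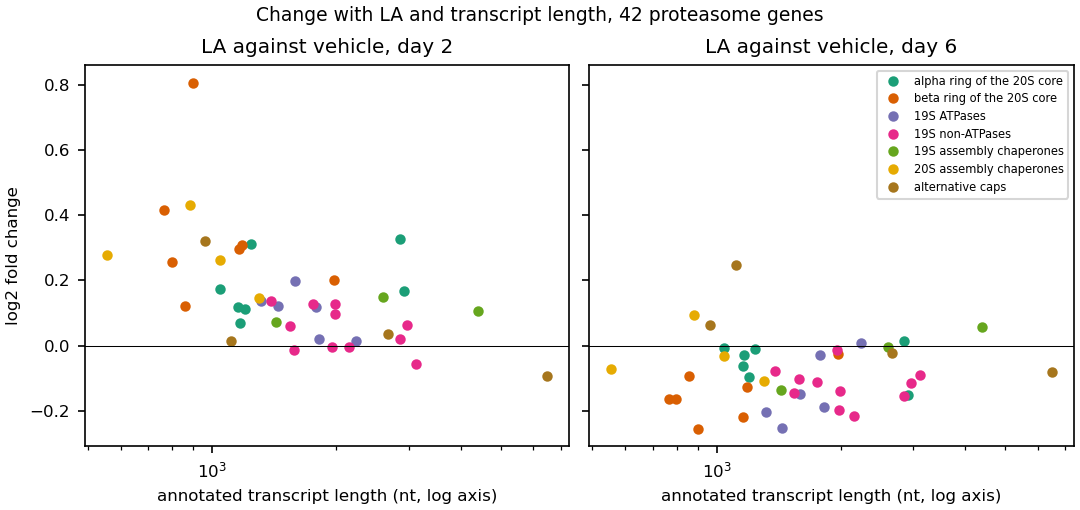
Log2 fold change with LA (y axis) against annotated transcript length (x axis, log scale) for 42 proteasome genes, coloured by subcomplex, on day 2 (left) and day 6 (right). On day 2 shorter transcripts tend to have higher values (rho -0.559), with exceptions such as Psmb2 (859 nucleotides), which was not called. On day 6 no such slope is seen (rho 0.0202).

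On day 6 the members called were lower with LA, and 7 of these 8 belonged to the 19S particle. Of the 45 members, 8 fell with LA and none rose. Of all genes tested, 9.38% fell and 7.83% rose. Of the 17 genes of the 19S particle, 7 fell, with a median log2 fold change of -0.14, and of the 14 genes of the core, 1 fell, with a median of -0.094. Within the core the median was -0.16 in the beta ring, near that of the 19S particle, and -0.027 in the alpha ring. Subcomplexes were not tested against each other on either day, so the counts of calls do not place the change in one of them. At an unadjusted p under 0.05, 13 members were lower and 1 was higher.

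Among the ATPases, 4 of 6 fell. Psmc4 measured 105, 94.6, 93.6 and 98.9 CPM with vehicle and 82.8, 76.7, 89.2 and 81.1 CPM with LA, a log2 fold change of -0.25 (SE 0.062, adjusted p = 0.00353). Psmc5 measured 181, 179.8, 169.7 and 179 CPM and 156, 144, 159 and 157 CPM, a change of -0.20 (SE 0.05, adjusted p = 0.00372). In both genes every LA library lay below every vehicle library. Psmc3 changed by -0.19 (SE 0.06, adjusted p = 0.025) and Psmc1 by -0.15 (SE 0.048, adjusted p = 0.0319), while Psmc2 and Psmc6 stood at -0.028 and 0.0074.

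Of the non-ATPases, 3 of 11 fell. Psmd3, a scaffold subunit of the lid, measured 176, 175, 159 and 165 CPM with vehicle and 151, 134, 156 and 141 CPM with LA, without overlap, and changed by -0.22 (SE 0.052, adjusted p = 0.00287). Psmd11, a lid subunit, changed by -0.15 (SE 0.051, adjusted p = 0.0336), and Psmd14, the lid deubiquitinase, by -0.15 (SE 0.05, adjusted p = 0.0379). In the core, Psmb7 went from 168, 159, 151 and 147 CPM to 143, 126, 140.5 and 127 CPM, without overlap, a change of -0.22 (SE 0.064, adjusted p = 0.0139). Psme1, of the 11S cap, stood on the other side at 0.25 (SE 0.092, adjusted p = 0.0627) and did not pass the test. It passed in 5 of 16 alternatives, namely with the compared groups alone (adjusted p = 0.00784), under library totals (0.031), without LA library 2 (0.0445), with 5 CPM required in 4 libraries (0.0495) and under DESeq2's size factors (0.0499, with 7 members lower).

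The calls for Psmc4, Psmc5 and Psmd3 held without any 1 of the 8 libraries. The count of 8 was 3 without vehicle library 1 or LA library 4, 4 without vehicle library 2 or 4, 4 without LA library 2 (1 higher, 3 lower), 5 under scaling by library totals (1 higher, 4 lower), and 13 when the 8 libraries were fitted alone (1 higher, 12 lower). The gene that was higher was Psme1 each time.

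Markers of differentiation moved with the LA group on day 6. Of 12 myoblast and myotube marker genes, 10 fell and 1 rose, for example Acta1, skeletal actin, at -0.43 (SE 0.051, adjusted p = 1.9e-07). Of 7 fibroblast marker genes, 5 rose, with Pdgfra at 0.69 (SE 0.082, adjusted p = 1.94e-07). Their part in the proteasome change was not tested.

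The effect of LA on day 6 minus its effect on day 2 was tested directly. This difference was below 0 for 16 of the 45 members and above 0 for none at an adjusted p under 0.05, against 11.0% and 8.68% of all genes tested. The 16 genes were 8 of the core and 8 of the 19S particle. The beta ring had 6 of 7 genes among them, with Psmb7 at -0.52 (SE 0.089, adjusted p = 0.000151), Psmb3 at -0.58 (SE 0.12, adjusted p = 0.00209), Psmb4 at -0.44 (SE 0.091, adjusted p = 0.00114) and Psmb6 at -0.42 (SE 0.1, adjusted p = 0.0049). Among the ATPases were Psmc1 at -0.35 (SE 0.068, adjusted p = 0.000619), Psmc4 at -0.37 (SE 0.086, adjusted p = 0.00262) and Psmc5 at -0.34 (SE 0.07, adjusted p = 0.000977). These 7 calls, and that for Psma2 at -0.32, held in all 25 alternatives. The fitted difference furthest from 0 was that of Psmb5, -1.06 (SE 0.34, adjusted p = 0.0321), whose call was lost in 14 of the 25.

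In 31 of the 42 proteasome genes the fitted LA effect was above 0 on day 2 and below 0 on day 6. This held for 13 of 14 core genes and 12 of 17 genes of the 19S particle. The 20S assembly chaperones had 3 of 4 in this pattern and the caps 1 of 4. The share of all genes tested with this pattern was not counted, so these counts do not show that it is unusual. The mean of the respiratory chain list took the same course. It was -0.197 with vehicle and 0.206 with LA on day 2, and 0.0491 and -0.125 on day 6. For ribosomal protein genes the day 6 means were -0.132 with vehicle and -0.154 with LA, and for TRiC genes -0.0564 and -0.0327. No test was run on these list means. The count of 16 was 8 without vehicle library 1 or 2 of day 6 or LA library 2 or 4 of day 6. It was 9 without vehicle library 4 of day 6 or vehicle library 1 of day 2, and 9 without LA library 3 of day 2, with 8 below 0 and Psme1 above (0.37, adjusted p = 0.0266). It was 10 without vehicle library 3 or LA library 2 of day 2, under DESeq2's size factors, or with the compared groups alone.

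**Figure D4:**
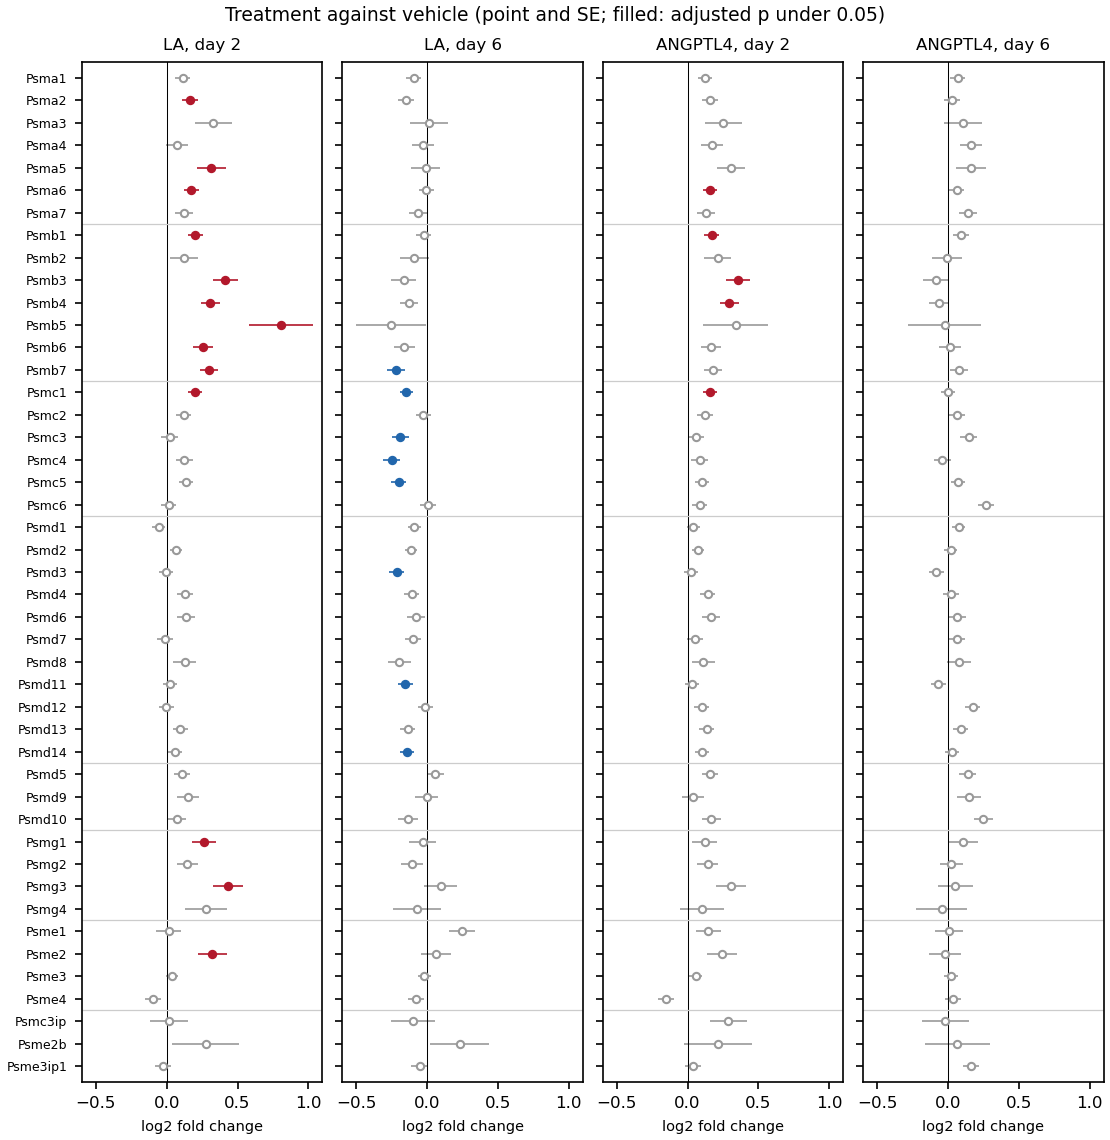
Log2 fold change against vehicle with its SE (x axis) for the 45 members (rows, by subcomplex, with the 3 other matches at the foot) for LA and ANGPTL4 on both days; filled points passed an adjusted p under 0.05, red higher and blue lower. With LA 13 points are filled to the right of 0 on day 2 and 8 to the left on day 6; ANGPTL4 has 5 filled on day 2 and 0 on day 6.

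ANGPTL4 on day 2 raised 5 members and lowered none, where 3.86% of all genes tested rose and 5.96% fell. The 5 were Psmb3, Psmb4, Psmb1, Psma6 and Psmc1, and the same vehicle libraries served as controls for LA and ANGPTL4. Psmb3 measured 86.7, 89.2, 86.9 and 101 CPM with ANGPTL4, all above the vehicle libraries given above, a log2 fold change of 0.36 (SE 0.087, adjusted p = 0.013), beside 0.41 for LA. Psmb4 measured 105, 113, 114 and 124 CPM, a change of 0.30 (SE 0.064, adjusted p = 0.00601), beside 0.31 for LA. These calls held in all 16 alternatives. Psmc1 changed by 0.16 (SE 0.048, adjusted p = 0.0349), Psmb1 by 0.17 (SE 0.053, adjusted p = 0.0409) and Psma6 by 0.16 (SE 0.052, adjusted p = 0.0498).

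The last 3 calls were close to the threshold. The count of 5 was 3 without vehicle library 1, 2 or 3. It was also 3 without ANGPTL4 library 2, 2 higher and Psme4 lower (-0.20, adjusted p = 0.0468), and 2 without ANGPTL4 library 1, 3 or 4. It was 10 under scaling by library totals, and 2 under DESeq2's size factors, with 5 CPM required in 4 libraries, or with the 8 compared libraries alone. Psmb7 stood at 0.18 with ANGPTL4 on day 2 (adjusted p = 0.0615) and Psmb5 at 0.34 (adjusted p = 0.381). Psme4 was at -0.15 (adjusted p = 0.0765). In all, 44 of the 45 fitted values were above 0, and at an unadjusted p under 0.05, 23 members were higher and 1 was lower. The median log2 fold change was 0.14 over the members and 0.023 over all genes tested. The share of all genes above 0 was not counted.

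On day 6 no member passed the test for ANGPTL4, and 0.0231% of all genes tested did. At an unadjusted p under 0.05, 7 members were higher and none lower, limma-voom called 0 and DESeq2 called 1. That gene was Psmc6, an ATPase, which measured 246, 261, 263 and 279.6 CPM with vehicle and 288, 328, 324 and 322 CPM with ANGPTL4. Every ANGPTL4 library lay above every vehicle library, with a log2 fold change of 0.27 (SE 0.055, adjusted p = 0.0856) in the main test and an adjusted p of 0.00427 in DESeq2. Without ANGPTL4 library 1, the shallowest library, the edgeR value was 0.31 (adjusted p = 0.0326), and with the 8 compared libraries alone 0.27 (adjusted p = 0.0104). The difference between the ANGPTL4 effects of the 2 days passed for 0 members and 0.277% of all genes tested. At an unadjusted p under 0.05, 2 members were above 0 and 3 below, and limma-voom called 0. DESeq2 called 2, Psmb3 at -0.42 (adjusted p = 0.0368) and Psmb4 at -0.34 (adjusted p = 0.0324). In edgeR, Psmb3 passed without vehicle library 1 of day 2 (adjusted p = 0.0485), and Psmb4 without ANGPTL4 library 1 of day 2 (0.0295), without vehicle library 3 of day 6 (0.0416) or under library totals (0.0455).

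LA and ANGPTL4 were compared directly. On day 2 no member passed the test, and 0.0924% of all genes tested did. At an unadjusted p under 0.05, 1 member was higher and 2 were lower with LA, and neither limma-voom nor DESeq2 called any. The 95% interval of the difference, not adjusted for the number of genes, was -0.0054 to 0.24 for Psmb7, -0.11 to 0.22 for Psmb3 and 0.061 to 0.88 for Psmb5. Without LA library 4, Psmb5 differed by 0.66 (adjusted p = 0.00167).

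On day 6, 17 members were lower with LA than with ANGPTL4 and none was higher, against 7.32% and 6.60% of all genes tested. Of the 17, 11 belonged to the 19S particle. Psmc3 measured 409.6, 352, 410.3 and 388 CPM with LA and 494, 515, 457 and 501 CPM with ANGPTL4, without overlap, a log2 difference of -0.34 (SE 0.06, adjusted p = 0.00014). Psmd10, or gankyrin, a chaperone of the 19S base, measured 27.7, 26.2, 28.6 and 28.2 CPM and 34.2, 35.8, 38.3 and 36.1 CPM, also without overlap, a difference of -0.39 (SE 0.07, adjusted p = 0.00017). Psmc5 differed by -0.27 (SE 0.051, adjusted p = 0.000234) and Psmb7 by -0.30 (SE 0.065, adjusted p = 0.00132). The calls for these 4 genes held in all 17 alternatives. The count of 17 was 6 without LA library 2 and 10 without LA library 4. It was 8, 10 and 11 without ANGPTL4 library 2, 3 and 4, and 9 under scaling by library totals, 8 lower and Psme1 higher. Psme1 was also higher with the compared groups alone (adjusted p = 0.0222). At an unadjusted p under 0.05, 25 members were lower and 1 was higher.

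Without treatment, the members that changed with time all rose. From day 2 to day 6 in vehicle cells, 19 members rose and none fell, against 25.2% and 20.5% of all genes tested, and the median of the 45 was 0.12. The 19 included 7 of 14 core genes and 8 of 17 genes of the 19S particle. Psmd13, a lid subunit, measured 92, 99, 106 and 86.4 CPM on day 2 and 119, 124, 117 and 122 CPM on day 6, a log2 fold change of 0.33 (SE 0.054, adjusted p = 7e-06). Psmb4 reached 122, 122, 110.5 and 119 CPM on day 6, a change of 0.35 (SE 0.065, adjusted p = 4.91e-05). In both genes the days did not overlap. Psmd10 changed by 0.33 (SE 0.069, adjusted p = 0.000219), Psmb7 by 0.27 (SE 0.064, adjusted p = 0.000833) and Psmc5 by 0.22 (SE 0.05, adjusted p = 0.000627).

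The calls for Psmd13, Psmb4, Psmd10 and Psmb7 held in all 16 alternatives. The count of 19 was 9 without vehicle library 1 or 2 of day 6 and 12 without vehicle library 1 or 2 of day 2. It was 10 under scaling by library totals (9 higher and Psme3 lower) or with the 8 libraries alone. DESeq2 called 13 members higher and 1 lower, Psme3 at -0.11 (adjusted p = 0.0475).

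With LA the same interval gave 15 members lower and 3 higher, where 20.7% and 23.1% of all genes tested fell and rose. LA libraries of day 6 held 8192308 to 15230974 counts, fewer than LA libraries 1 to 3 of day 2. LA library 4 of day 2, at 9547787, lay within that range. The part of depth in these changes was not tested. The 5 beta genes that fell included Psmb3 at -0.34 (SE 0.087, adjusted p = 0.00249), Psmb7 at -0.25 (SE 0.063, adjusted p = 0.00191) and Psmb2 at -0.38 (SE 0.099, adjusted p = 0.00348). Psmb2 measured 88.5, 88.3, 90.4 and 80.2 CPM on day 2 and 66.5, 65.2, 74.4 and 62.5 CPM on day 6, without overlap. Psmc4 changed by -0.28 (SE 0.061, adjusted p = 0.00042), and Psmg1, a core assembly chaperone, by -0.41 (SE 0.09, adjusted p = 0.000371). The 3 genes called higher were Psme4, Psme2b and Psme3ip1. There were 6 members called higher in vehicle cells and lower in LA cells, namely Psma2, Psmb3, Psmb6, Psmb7, Psmc1 and Psmc5. All 6 were among the 16 genes of the direct test of that difference. The difference equals the LA change with time minus the vehicle change in the same fit, so this overlap is not separate evidence. How many of all genes tested were called in these opposite directions was not counted, so the 6 are not shown to be unusual. Leaving out 1 of 8 libraries in turn, the vehicle call was kept 2 times for Psmb6, 3 for Psma2 and for Psmb3, 6 for Psmc1 and 8 for Psmb7 and Psmc5. The LA call of Psmc5 was kept 2 times and that of Psma2 7 times, and those of the other 4 were kept 8 times.

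With ANGPTL4, 11 members (24.4%) rose from day 2 to day 6 and 4 (8.89%) fell, against 22.4% and 19.8% of all genes tested. The share that rose was thus near that of all genes. ANGPTL4 libraries held 13194847 to 20580188 counts on day 2 and 6100684 to 9067864 on day 6, so the days did not overlap in depth. What depth has to do with these changes was not tested. The 19S particle had 6 genes higher and none lower, among them Psmd13 at 0.29 (SE 0.054, adjusted p = 5.27e-05) and Psmc6 at 0.24 (SE 0.055, adjusted p = 0.000641). The core had Psmb7 higher at 0.17 (SE 0.064, adjusted p = 0.0337) and Psmb2 lower at -0.38 (SE 0.1, adjusted p = 0.00359). Psmd10 changed by 0.41 (SE 0.068, adjusted p = 8.44e-06). The median of the 45 was 0.025, and -0.042 under scaling by library totals, where the median of all genes was -0.07 and the split was 7 higher and 5 lower. The other genes called lower were Psme1 at -0.26 (SE 0.094, adjusted p = 0.0276), Psme3 at -0.12 (SE 0.047, adjusted p = 0.035) and Psmc3ip at -0.40 (SE 0.15, adjusted p = 0.0315). With 1 of 8 libraries left out in turn, the call was kept 3 times for Psmb7, 4 for Psme3, 5 for Psmc3ip and 6 for Psme1. It was kept 8 times for Psmb2, Psmd13, Psmc6 and Psmd10. Without ANGPTL4 library 1 of day 2 the split was 11 higher and 1 lower.

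**Figure D5:**
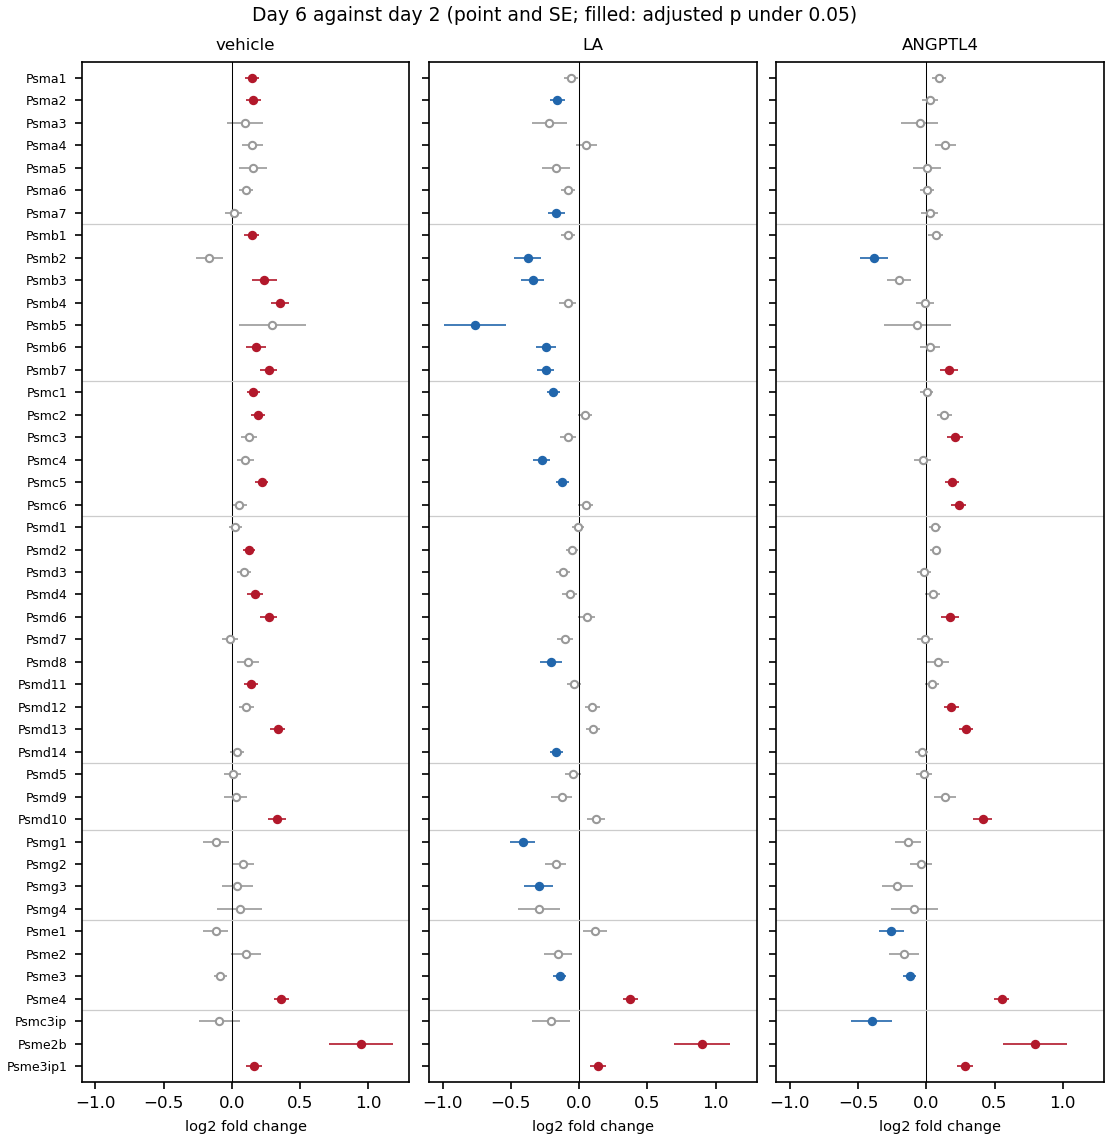
Log2 fold change from day 2 to day 6 with its SE (x axis) for the 45 members (rows, by subcomplex, with the 3 other matches at the foot) in vehicle, LA and ANGPTL4 cells; filled points passed an adjusted p under 0.05. Vehicle cells have 19 filled points, all to the right of 0, and LA cells 15 to the left and 3 to the right; Psme4 lies to the right in all 3.

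Psme4, the cap that carries a bromodomain-like region and serves ubiquitin-independent degradation, rose from day 2 to day 6 in every treatment. It measured 350.1, 334, 346 and 314 CPM in vehicle cells on day 2 and 415, 421, 445 and 446 CPM on day 6, a log2 fold change of 0.36 (SE 0.056, adjusted p = 3.65e-06). With LA it went from 304, 318, 290.5 and 347 CPM to 410.0, 378, 434 and 409.8 CPM, a change of 0.37 (SE 0.056, adjusted p = 2.17e-06). With ANGPTL4 it went from 281, 320.4, 318 and 288 CPM to 429.7, 416, 465 and 459.6 CPM, a change of 0.55 (SE 0.057, adjusted p = 1.38e-09). Day 2 and day 6 libraries did not overlap in any treatment, and no alternative ended a call. No difference between treatments within a day passed the test for Psme4 with all libraries; the exception without ANGPTL4 library 2 of day 2 is given above.

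The 3 matches that are not proteasome subunits are given separately. Psme2b rose with time in every treatment, by 0.95 (SE 0.24, adjusted p = 0.00153) in vehicle, 0.90 (SE 0.21, adjusted p = 0.000638) in LA and 0.80 (SE 0.23, adjusted p = 0.00605) in ANGPTL4 cells. Its level was at most 4.05 CPM in any of the 24 libraries, and reads of Psme2 and of this near-copy may not be told apart. Psme3ip1 was called higher with time, by 0.16 (SE 0.057, adjusted p = 0.021) in vehicle, 0.14 (SE 0.057, adjusted p = 0.0482) in LA and 0.28 (SE 0.058, adjusted p = 0.000161) in ANGPTL4 cells, and was lower with LA than with ANGPTL4 on day 6, at -0.21 (SE 0.059, adjusted p = 0.0109). Leaving out 1 of 8 libraries in turn, its call was kept 2 times in vehicle, 2 times in LA and 8 times in ANGPTL4 cells. Psmc3ip, at 3.05 to 5.58 CPM, passed only the ANGPTL4 day comparison given above. Named pseudogenes of Psma5, Psmb5, Psmb6 and Psmb7 exist in RefSeq, so values of these genes are uncertain where reads could fall on a copy.

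Of the immunoproteasome genes outside the rule, Psmb10 was the one tested. It measured 7.52, 7, 8.36 and 6.85 CPM in vehicle cells on day 2 and 8.73, 9.94, 10.6 and 8.9 CPM with LA, a log2 fold change of 0.38 (SE 0.11, adjusted p = 0.0229), with every LA library above every vehicle library. From day 2 to day 6 it changed by -0.39 (SE 0.12, adjusted p = 0.00609) with LA and -0.42 (SE 0.13, adjusted p = 0.00935) with ANGPTL4. In vehicle cells it stood at 0.042. Psmb8 held 111 counts over all 24 libraries and did not pass the filter.

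Nfe2l1, the activator of proteasome genes, rose from day 2 to day 6 in vehicle cells, from 665, 671, 662 and 558 CPM to 950.1, 929, 898 and 843 CPM. The days did not overlap, and the log2 fold change was 0.50 (SE 0.054, adjusted p = 3.59e-09). With LA on day 6 it measured 764, 775, 773 and 794 CPM, below every vehicle library, a change of -0.22 (SE 0.053, adjusted p = 0.0031), while with LA on day 2 it stood at -0.0073 (adjusted p = 0.949). Nfe2l2, its relative, stood at 0.095 with LA on day 6. Of 12 regulators listed, 2 fell with LA on day 6, the other being Mafk at -0.31 (SE 0.065, adjusted p = 0.000778). In that comparison 9.38% of all genes tested fell.

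Muscle ubiquitin ligases feed the proteasome its substrates. Fbxo32, or atrogin-1, fell from day 2 to day 6 in every treatment, with log2 fold changes of -0.19 (SE 0.054, adjusted p = 0.00527) in vehicle, -0.29 in LA and -0.23 in ANGPTL4 cells. It stood at 0.026 and -0.074 with LA on the 2 days. Trim63, or MuRF1, rose with time in vehicle cells by 0.28 (SE 0.066, adjusted p = 0.000865) and was lower with LA on day 6, at -0.19 (SE 0.066, adjusted p = 0.0465). Of 14 such ligase genes tested, 1 rose and 2 fell with LA on day 2, and 1 rose and 3 fell on day 6. Of all genes tested, 8.27% rose and 6.82% fell on day 2, and 7.83% rose and 9.38% fell on day 6.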

How the data were processed

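The authors deposited 1 table of raw read counts per gene, 14693 genes in 24 libraries, whose lowest gene total is 51. Per the submitters' processing notes, the tools were HTSeq 0.9.1, STAR 2.7.1a, Trimmomatic, DESeq and DESeq2, and the mouse build was mm39. The counting and strand settings are not given in the sources used here. From these counts, 12994 genes passed edgeR's filterByExpr (1699 did not), and all 24 libraries entered 1 quasi-likelihood fit (edgeR 4.0.16, R 4.3.3, TMM scaling, 6 group means, 18 residual degrees of freedom). Benjamini-Hochberg adjustment ran over the 12994 genes, with calls at an adjusted p under 0.05. The common biological coefficient of variation was 6.51%. List means are means of centred log2 CPM (prior count 2).

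Library totals ran from 6100684 to 25049912 counts. The members and lists were chosen with earlier results of these data known. Members were named if catalytic or listed for their role, if among the 3 called members with the highest or the 3 with the lowest change and no overlap of libraries, if called against the majority, or if they are not proteasome genes. Members named beyond this were chosen after their values were seen. For members picked because their libraries did not overlap, the lack of overlap is not separate evidence. Alternatives were other scalings and filters, limma-voom (3.58.1), DESeq2 (1.42.0), a replicate block, fits of the compared groups alone, and leaving out libraries. The tests were tried on simulated data first. Promoter sequences are from RefSeq (GRCm38.p6), and all 45 members matched a RefSeq symbol. Transcript lengths are those of the longest protein-coding transcript of each gene in the GENCODE basic set, with a length for 44 members. Some genes outside the rule are not reported here.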

Additional observations from a re-analysis of the deposited data

Results flagged for a closer look

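The effect of LA on day 6 differed from its effect on day 2, by a direct test, in 16 members, all with a difference below 0. In the beta ring the log2 differences were -1.06 for Psmb5, -0.58 for Psmb3, -0.516 for Psmb7, -0.435 for Psmb4, -0.42 for Psmb6 and -0.226 for Psmb1. In the alpha ring they were -0.318 for Psma2 and -0.207 for Psma1. Among the ATPases they were -0.375 for Psmc4, -0.345 for Psmc1 and -0.341 for Psmc5. Among the non-ATPases they were -0.237 for Psmd4, -0.234 for Psmd13, -0.211 for Psmd3, -0.207 for Psmd14 and -0.176 for Psmd2.

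In 7 of 156 groups of 4 libraries, 1 library lay apart from the other 3 (its gap to the nearest, over the whole range, was above Dixon's critical value for 4 samples). Chance alone gives about 1 in 20 such groups. Among list means, 1 library with LA on day 6 stood at -0.194 for the ATPases. For the non-ATPases, 1 vehicle library of day 2 stood at -0.047 and 1 ANGPTL4 library of day 6 at 0.144. Psma7 measured 128 CPM in vehicle library 1 of day 6. Psme2b measured 1.25 CPM in LA library 2 and 2.23 CPM in ANGPTL4 library 1 of day 2. Psme3ip1 measured 66.2 CPM in vehicle library 4 of day 2.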

How the results depend on the processing

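No call among the 113 called results of named genes changed direction under any alternative, and 54 of the 113 kept their side of the threshold in all of them. Leaving out 1 library in turn, the number of members called ranged from 3 to 14 for LA on day 2, 3 to 9 for LA on day 6, 2 to 5 for ANGPTL4 on day 2, and 0 to 1 for ANGPTL4 on day 6. It ranged from 0 to 1 for LA against ANGPTL4 on day 2 and 6 to 13 on day 6, 9 to 19 for vehicle cells over time, 8 to 17 for the difference between the LA effects, and 0 to 1 for that between the ANGPTL4 effects. With the compared groups fitted alone it was 2 for LA on day 2, 13 for LA on day 6 (1 higher, 12 lower), 2 for ANGPTL4 on day 2, 1 for ANGPTL4 on day 6, 10 for vehicle cells over time and 10 for the LA difference. Under library totals it was 5 for LA on day 6 (1 higher, 4 lower), 10 for ANGPTL4 on day 2, 9 for LA against ANGPTL4 on day 6 (1 higher, 8 lower), 10 for vehicle cells over time (9 higher, 1 lower) and 1 for the ANGPTL4 difference. ANGPTL4 cells over time then had 7 higher and 5 lower. With DESeq2 size factors in edgeR it was 2 for ANGPTL4 on day 2, 10 for the LA difference, and 1 higher with 7 lower for LA on day 6. With 5 CPM required in 4 libraries it was 2 for ANGPTL4 on day 2. DESeq2 called 1 member for ANGPTL4 on day 6 and 2 for the ANGPTL4 difference. Without LA library 3 of day 2 and ANGPTL4 library 1 of day 6, it was 4 for LA on day 2, 1 for ANGPTL4 on day 6 and 9 for the LA difference (1 above 0, 8 below). The cause of these shifts was not tested. The smaller fits also held fewer libraries. Same-numbered libraries did not deviate together (60 pairs, correlations from -0.309 to 0.303, median 0.00877). With the replicate block the counts were 11, 8, 5, 0, 0, 17, 19, 16, 15, 15 and 0, for LA and then ANGPTL4 against vehicle (day 2, day 6), LA against ANGPTL4 (day 2, day 6), time in vehicle, LA and ANGPTL4 cells, and the LA and ANGPTL4 differences.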
